A study of Mus musculus with 12 samples.

Results

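Wide peaks were those of at least 3000 bp on chromosomes 1 to 19 in 6 lists of places where DNA was recovered with an antibody against MACF1. They were chosen on the width that the authors' peak caller gave, so width is reported here as a description only. Of 46148 peaks on these chromosomes, 2049 were wide and 44099 were narrower. All 6 lists together held 46669 peaks. Knockdown 1 held 1990 of the wide peaks, or 97.1%, and the other 5 lists held 59.

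The cells were MC3T3-E1, a mouse osteoblast line derived from newborn calvaria. Chromatin was immunoprecipitated in 3 libraries labelled Control and 3 labelled MACF1 knockdown, each with its own input, which makes 12 samples in 4 groups of 3. Libraries are called here by group and by their labels 1, 2 and size3. The labels do not say how the knockdown was made, whether it was 1 clone, whether libraries came from separate cultures, or what size3 stands for. More than 1 antibody lot is named without saying which library had which. Peak lists carry no expression, so neither the cell type nor the loss of MACF1 was tested here.

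MACF1 is a spectraplakin, a giant protein that ties actin filaments to microtubules, and it takes part in Wnt signalling. It is not a classical DNA-binding factor, so DNA recovered with its antibody need not be bound by it directly. Transcription factors usually give narrow peaks at short motifs, whereas histone marks, elongating polymerase and CpG-rich developmental genes can give wide ones. A peak caller joins neighbouring enriched stretches, so the width of a peak also depends on the depth of its library and on the input.

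Sequences from RefSeq (build GRCm38.p6) show what kinds of DNA lay whole inside wide peaks. The 250 bases before a transcript start are printed for 6 genes of the pathway lists used below, 1 per list, because a wide peak of knockdown 1 covered each of them whole. They are written 5′ to 3′ on the strand of the gene. Capitals mark 8 motifs on either strand: CACCTG with its relative CAGCTG (E-boxes of class 1 helix-loop-helix factors), CACGTG (the E-box of Myc and Usf factors), GCGGGAA (E2F), GGGCGG (the GC box), the CCAAT box, the TATAAA box and CTTTGA (the TCF and LEF core).
Hoxa10, chr6:52234940-52235189, minus strand: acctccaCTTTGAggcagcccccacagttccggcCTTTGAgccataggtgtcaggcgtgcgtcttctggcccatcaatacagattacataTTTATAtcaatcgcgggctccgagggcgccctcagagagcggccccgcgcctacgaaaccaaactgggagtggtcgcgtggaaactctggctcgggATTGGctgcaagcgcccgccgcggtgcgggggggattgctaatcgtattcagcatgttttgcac
Six5, chr7:19094294-19094543, plus strand: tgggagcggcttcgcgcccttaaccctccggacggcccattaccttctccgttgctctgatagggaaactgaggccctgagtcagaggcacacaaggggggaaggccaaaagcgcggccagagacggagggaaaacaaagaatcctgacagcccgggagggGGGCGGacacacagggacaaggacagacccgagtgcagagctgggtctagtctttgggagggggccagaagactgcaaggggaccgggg
Ihh, chr1:74951673-74951922, minus strand: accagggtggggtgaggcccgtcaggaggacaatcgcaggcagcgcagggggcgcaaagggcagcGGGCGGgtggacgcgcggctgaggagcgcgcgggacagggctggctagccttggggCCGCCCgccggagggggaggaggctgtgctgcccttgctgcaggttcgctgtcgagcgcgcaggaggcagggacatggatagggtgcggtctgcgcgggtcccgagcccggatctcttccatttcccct
Celsr2, chr3:108415580-108415829, minus strand: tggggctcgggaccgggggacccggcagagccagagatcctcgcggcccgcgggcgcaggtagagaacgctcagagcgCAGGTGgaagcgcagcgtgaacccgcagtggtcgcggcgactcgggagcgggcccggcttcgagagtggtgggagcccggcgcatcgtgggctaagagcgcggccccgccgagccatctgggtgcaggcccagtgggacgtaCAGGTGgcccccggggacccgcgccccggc
Dll4, chr2:119325534-119325783, plus strand: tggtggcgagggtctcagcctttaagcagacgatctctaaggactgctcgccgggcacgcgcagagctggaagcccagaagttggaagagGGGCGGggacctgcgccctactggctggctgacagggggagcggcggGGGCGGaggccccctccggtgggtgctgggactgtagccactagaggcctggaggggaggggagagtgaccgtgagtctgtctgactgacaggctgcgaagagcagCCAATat
Tcf3, chr10:80433636-80433885, minus strand: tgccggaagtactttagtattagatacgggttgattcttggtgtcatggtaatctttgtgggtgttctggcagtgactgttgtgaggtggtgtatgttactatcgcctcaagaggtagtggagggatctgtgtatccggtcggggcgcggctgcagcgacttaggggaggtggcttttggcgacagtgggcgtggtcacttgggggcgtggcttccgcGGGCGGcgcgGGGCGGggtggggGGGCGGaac
Hoxa10 is a Hox cluster gene that patterns limb and trunk. Hoxa10, Celsr2 and Tcf3 are shown at transcript starts that lie within the gene. Dll4 is a Notch ligand, Six5 is a homeobox factor, Ihh is the hedgehog ligand of cartilage and bone, Celsr2 is a polarity cadherin and Tcf3 is a class 1 helix-loop-helix factor. The GC share of these windows ran from 59.2% in Hoxa10 to 75.2% in Celsr2. Celsr2 held CACCTG at 2 places and 32 CG dinucleotides, the most of the 6. Tcf3 held the GC box at 3 places. Hoxa10 held no GC box and was the one of the 6 with CTTTGA, at 2 places, and TATAAA, at 1.

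A further set of sequences is printed because 1 wide peak of knockdown 1, chr6:30165050-30170921, held the hairpins of miR-183, miR-96 and miR-182 together. These microRNAs are made from 1 cluster that is best known from sensory organs. After them come miR-92b-3p, whose hairpin lies between protein-coding genes in another wide peak, and a pair of microRNAs that share their seed. Capitals mark the seed, bases 2 to 8 from the 5′ end.
miR-183-5p: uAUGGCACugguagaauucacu
miR-96-5p: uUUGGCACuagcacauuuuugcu
miR-182-5p: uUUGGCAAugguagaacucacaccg
miR-92b-3p: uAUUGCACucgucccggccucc
miR-7028-5p: uGGGCUGAggcuugggucaggag
miR-7662-5p: aGGGCUGAggccuggauccagc
These microRNAs were picked after the values were seen. The peak over the cluster was 5872 bp wide and held 525 reads, 89.4 per kb. No other library had a peak that touched it, and none touched the 6967 bp peak over miR-92b (497 reads, 71.3 per kb). Wide peaks of knockdown 1 held 44 of the 919 autosomal hairpins in the RefSeq sequence table whole, in 41 peaks, and 38 of the 44 lay within a protein-coding gene. By the RefSeq gene table, which lists more microRNA genes, 46 were held whole. Knockdown size3 held 1, that of miR-6988 within Syvn1, and the other 4 libraries held 0. Over the 82 mature sequences of these hairpins there were 81 different seeds, and the shared one was that of miR-7028-5p and miR-7662-5p. Of all wide summits of knockdown 1, 84.2% lay inside a protein-coding gene, so such a place was not particular to hairpins. Wide peaks of that library touched 7.83% of protein-coding genes and held 65 of 20665 whole. Hairpins are much shorter than genes, so these counts are not like for like.

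Peak width separated the libraries more than the groups. Knockdown 1 had 1990 wide peaks among 21145 autosomal peaks, or 9.41% (Wilson 95% interval 9.02 to 9.81%). Knockdown size3 had 48 of 17507, or 0.274% (0.207 to 0.363%), and knockdown 2 had 3 of 4402, or 0.0682% (0.0232 to 0.200%). Control size3 had 6 of 2195, or 0.273% (0.125 to 0.595%), control 1 had 1 of 739, or 0.135% (0.0239 to 0.762%), and control 2 had 1 of 160, or 0.625% (0.110 to 3.45%). The share in knockdown size3 thus lay within the interval of control size3, while knockdown 1 stood apart from the other 5. These intervals cover counting error only, and peaks of 1 library are not replicates of a condition. A further 4, 5 and 1 peaks of at least 3000 bp in control 1, control 2 and knockdown 2 lay on other sequence and are not counted.

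**Figure D1:**
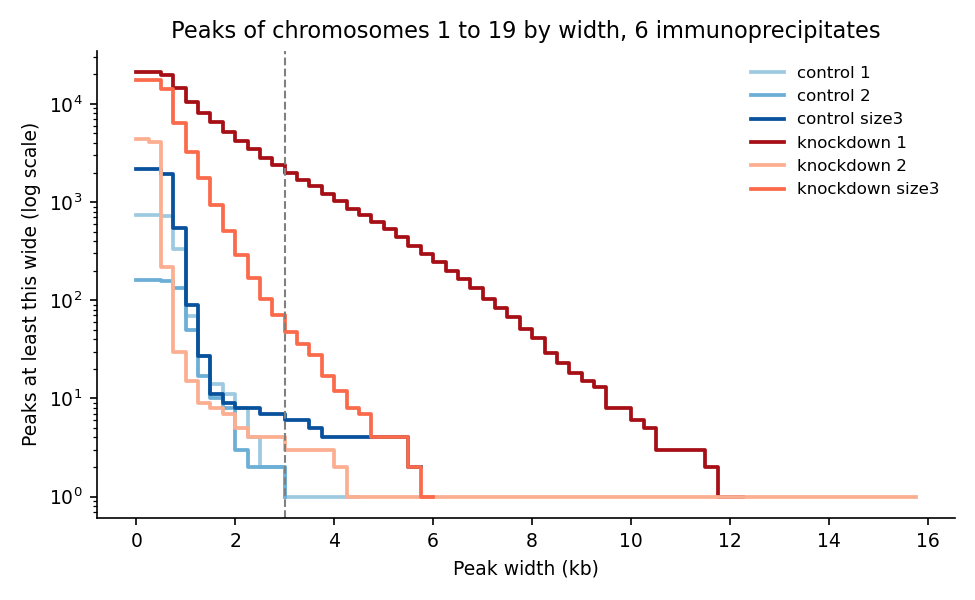
Number of autosomal peaks (log scale) at least as wide as the value on the x axis (kb), 1 line per immunoprecipitate, with the dashed line at 3 kb. Knockdown 1 keeps 1990 peaks at 3 kb, against 48 in knockdown size3 and 6 or fewer in the other 4 libraries.

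Depth did not follow the same order. After duplicate removal knockdown 1 held 18454330 reads, knockdown size3 8175173 and knockdown 2 5575205. Control 2 held 33085606, control 1 26196138 and control size3 10698067, so both of the deepest libraries had 1 wide peak each. The redundant rate that the caller gave was 0.51 in knockdown 1 and 0.65 in knockdown 2, against 0.01 to 0.25 in the other 4. The fragment length that the caller estimated was 129 bp in knockdown 2 and 198 to 209 bp in the other 5. Whether depth or duplicates set the number of wide peaks was not tested.

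In knockdown 1 the wide peaks had a median width of 4031 bp (quartiles 3444 and 5086), and 532 reached 5000 bp. They covered 8.81 Mb, or 29.1% of all sequence under autosomal peaks of that list. The widest was 12286 bp over Atp5d and Midn (chr10:80143569-80155854), with 1020 reads. Then came 11585 bp over Myh7b and Trpc4ap, 11417 bp over Ndufs7, Gamt and Dazap1, 10337 bp in Gna11 and 10277 bp in Per1, a clock gene. In knockdown size3 the median was 3580 bp and the widest peak, 6069 bp, lay over Stub1 and Rhbdl1 (chr17:25832017-25838085). Just inside the limit in knockdown 1 were peaks of 3000 bp in Nckap5, Sh3rf3 and Itsn2, and just outside were a peak 1 bp under the limit at C1ql1 and peaks of 2998 bp at Poc1a and Ehbp1l1. In knockdown size3 the nearest inside were 3001 bp in Smg5, 3021 bp at Ctsw and 3048 bp in Rapgef3, and outside 2980 bp in Epas1, 2970 bp in Rab36 and 2968 bp over H2-Ke6 and Slc39a7.

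Wide peaks held more reads per kb than narrower ones, and in the 3 libraries with at least 5 of them the fold enrichment was lower. The median was 56.4 reads per kb in wide and 45.2 in narrower peaks of knockdown 1, 31.1 and 26.6 in knockdown size3, and 38.6 and 25.6 in control size3. Knockdown 2 stood apart, at 603 in its 3 wide peaks and 25.2 in the narrower ones. Scaled to the reads of each library (RPKM), the wide peaks had medians of 3.06, 3.81 and 3.61 in knockdown 1, knockdown size3 and control size3, so the library with the most wide peaks was the lowest of the 3. The authors' fold enrichment at the summit had a median of 3.57 in wide and 5.18 in narrower peaks of knockdown 1, 4.53 and 8.10 in knockdown size3, and 3.61 and 8.33 in control size3. It was not lower in the single wide peak of control 1 (7.89 and 5.35) or of control 2 (6.40 and 6.35), and in knockdown 2 it was 6.5 and 15.6. In knockdown 1 it reached 5 in 57 wide peaks and no more than 6.53 in any. The caller sets width from reads, so these differences are given without a test.

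The caller also gave each peak a false discovery rate, estimated by calling peaks with immunoprecipitate and input exchanged. The authors' false discovery rate was at most 5% for 1866 of the 1990 wide peaks of knockdown 1, or 93.8% (92.6 to 94.7%), beside 98.9% of all its autosomal peaks. In knockdown size3 it was at most 5% for 38 of 48, or 79.2% (65.7 to 88.3%), beside 57.7% of all. Wide peaks thus passed less often than the whole list in knockdown 1 and more often in knockdown size3. In knockdown 1 the median score, made from the caller's p-value, was 81.6 in wide and 62.7 in narrower peaks. The median false discovery rate there was 2.15% in wide and 2.78% in narrower peaks. Among wide peaks of knockdown 1 at the genes named by rule from the lists below, the highest rates went with the highest scores. Score and rate were 211.29 and 12.4% at Sox8, 251.27 and 29.0% at Gata2, 294.54 and 71.4% at Evpl, and 340.14 and 100% at Col5a1. All 3 wide peaks of knockdown 2 were listed at 0%, while 0.727% of its narrower peaks passed. None of the 8 wide peaks in control libraries passed: the 6 of control size3 ran from 54.1 to 100%, and those of control 1 and control 2 were at 100%. No narrower peak of a control library passed either.

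In the 3 libraries with at least 5 wide peaks, wide peaks lay inside genes and in gene-dense regions more often than narrower ones. A summit, the highest point of a peak, is a point and does not gain hits from width. Summits inside a protein-coding gene made up 84.2% of wide and 59.6% of narrower peaks in knockdown 1, 91.7% and 59.6% in knockdown size3, and 66.7% (4 of 6) and 51.8% in control size3. The mean difference over the 3 libraries was 23.9 percentage points, with wide higher in 3 of 3 (exact two-sided sign-flip permutation, p = 0.25, n = 3, the smallest p that 3 libraries allow). Points spaced 100 kb apart over the same chromosomes fell inside a gene in 40.7% of cases.

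The median number of protein-coding genes within 500 kb on either side of the summit was 21 in wide and 10 in narrower peaks of knockdown 1. It was 35.5 and 11 in knockdown size3, and 20 and 9 in control size3. Evenly spaced points had a median of 6. In the other 3 libraries, left out for their few wide peaks, the single wide peak of control 1 and of control 2 lay outside genes with 5 genes within 500 kb. In knockdown 2, 1 of 3 lay inside a gene (33.3%, beside 41.0% of narrower peaks), and the median was 7 genes. The mean difference was 15.5 genes, again with wide higher in 3 of 3 libraries (exact two-sided sign-flip permutation, p = 0.25, n = 3). The 6 wide peaks of control size3 shared 1 place on chromosome 1 and are not independent of each other. In knockdown size3 36 of the 48 wide peaks, or 75%, had at least 20 genes within 500 kb, and in knockdown 1 1051 of 1990 did, or 52.8%, beside 23.9% and 21.3% of their narrower peaks.

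Gene ends gave no such uniform picture. The start or end of a protein-coding gene was at most 1 kb from the summit in 21.0% of wide and 15.0% of narrower peaks of knockdown 1, 16.7% and 12.9% in knockdown size3, and 0% (0 of 6, which allows up to 39.03% by the Wilson interval) and 5.53% in control size3. The mean difference was 1.41 percentage points, positive in 2 of 3 libraries (exact two-sided sign-flip permutation, p = 0.75, n = 3). Against peaks of 1000 bp up to the 3000 bp limit alone, wide peaks were lower in 3 of 3 libraries. There the values were 21.0% and 26.7% in knockdown 1, 16.7% and 24.7% in knockdown size3, and 0% and 3.57% in control size3, a mean difference of -5.78 percentage points (exact sign-flip permutation, p = 0.25, n = 3).

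**Figure D2:**
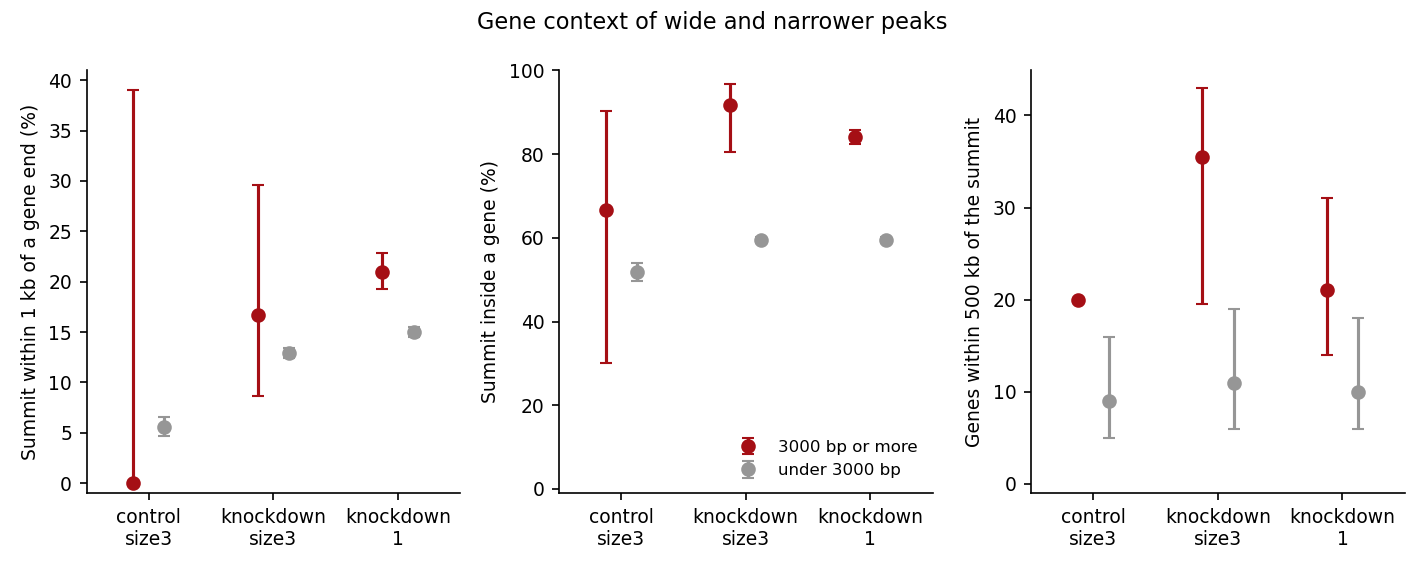
Share of summits within 1 kb of a gene end and inside a gene (points with Wilson 95% intervals), and number of protein-coding genes within 500 kb (median with quartiles), for wide and narrower peaks of the 3 libraries with at least 5 wide peaks. Inside genes and in gene number the wide peaks are higher in all 3 libraries, 84.2% against 59.6% and 21 against 10 genes in knockdown 1.

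The classes of width in knockdown 1 show where these differences sat. The median number of genes within 500 kb was 7 under 500 bp, 8 from 500 bp, 13 from 1000 bp and 16 from 2000 bp upwards. It was 19, 21, 22.5 and 28 in wide peaks from 3000, 4000, 5000 and 7000 bp upwards, so it was higher in each wider class. The share at gene ends was 2.51%, 6.27%, 26.5% and 27.1% in the 4 narrower classes and 21.6%, 21.3%, 19.2% and 20.2% in the wide ones. It was thus highest between 1000 and 3000 bp, below the limit that defines a wide peak. Reads per kb had a median of 54.2 in the class from 3000 bp and 63.1 in that from 7000 bp.

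**Figure D3:**
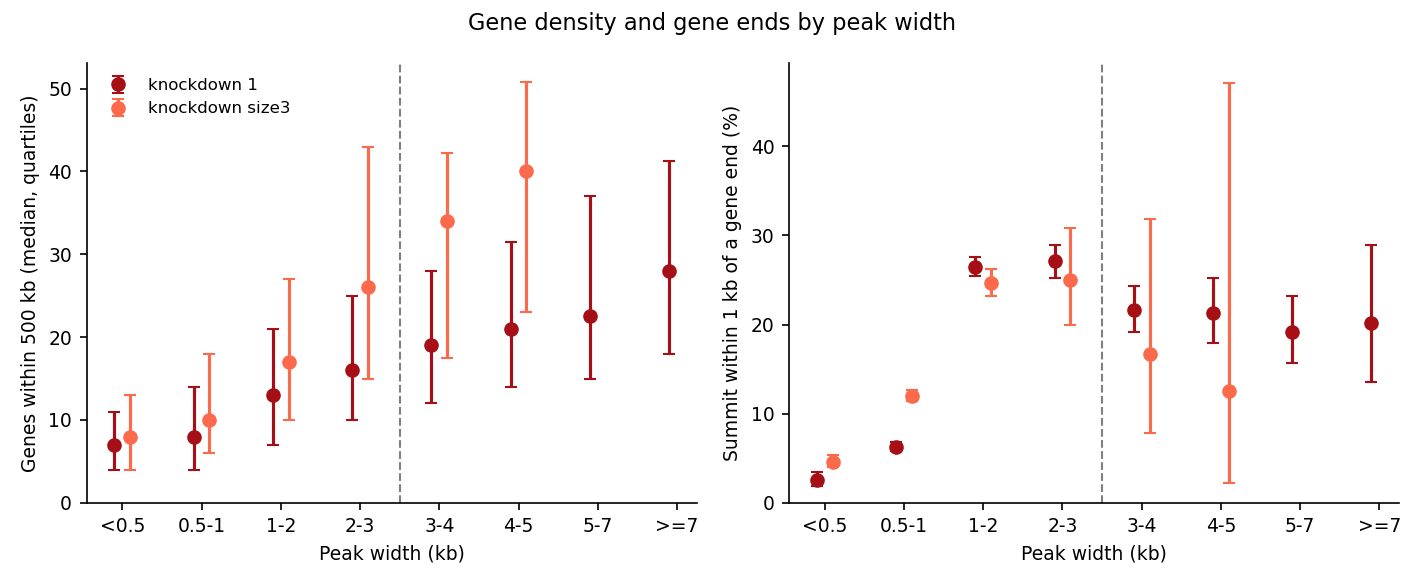
Genes within 500 kb of the summit (median, quartiles) and share of summits within 1 kb of a gene end (Wilson 95% intervals) by class of peak width in kb, with the dashed line at 3 kb. Gene number is higher in each wider class of knockdown 1, from 7 to 28, while the share at gene ends is highest from 1 to 3 kb, at 26.5 and 27.1%.

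Gene density and gene ends can be read apart in part by splitting peaks by the number of genes around them. Among peaks with at least 20 genes within 500 kb, 22.8% of wide and 23.0% of narrower summits of knockdown 1 were at gene ends, and 86.8% and 72.5% were inside genes. The same shares in knockdown size3 were 11.1% and 21.8% at gene ends, and 97.2% and 71.6% inside genes. Wide and narrower peaks are not matched within this class. In knockdown size3, 19 of the 36 wide peaks had 40 or more genes, beside 960 of 4179 narrower ones. In knockdown 1 it was 327 of 1051 and 771 of 4082. With 0 to 4 genes within 500 kb, 23 of 53 wide peaks of knockdown 1 were at gene ends, or 43.4% (31.0 to 56.7%), beside 6.70% of narrower ones. In the same library 23.5% of wide and 12.4% of narrower peaks were at gene ends with 5 to 9 genes. With 10 to 19 genes it was 15.8% and 16.9%. This split was chosen after the values had been seen and was not tested.

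Knockdown and control could be set against each other in 3 libraries alone. The share of wide peaks at gene ends was 21.0% and 16.7% in knockdown 1 and size3 and 0% in control size3, a difference of 18.8 percentage points (exact two-sided permutation of labels, p = 0.333, n = 3, the smallest p that the design allows). The median number of genes was 21 and 35.5 against 20, a difference of 8.25 (exact permutation, p = 0.667, n = 3). Neither difference could reach the 0.05 level in this design.

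Within genes the wide peaks of both knockdown libraries with at least 5 of them lay later than the narrower ones. A summit inside more than 1 gene of known strand was counted once for each gene. Of 1338 such counts for wide summits of knockdown 1, 57.2% (54.5 to 59.8%) were nearer to the gene's end than to its start. For narrower summits it was 45.3% of 9065. In knockdown size3 it was 29 of 39, or 74.4% (58.9 to 85.4%), beside 49.9%. In control size3 it was 1 of 4, or 25%, beside 47.9%, the other way round. The first 10% of the gene held 15.4% of wide and 23.0% of narrower summits in knockdown 1, and the last 10% held 15.1% and 10.9%. The genes around wide summits were shorter, with a median length of 34.0 kb against 77.6 kb in knockdown 1. A transcript start lay within 1 kb of 14.4% of wide and 11.9% of narrower summits in knockdown 1, and a gene's end within 1 kb of 6.12% and 2.37%. These are shares of the 1962 wide and 18541 narrower peaks on the 18 chromosomes with listed starts. These shares were not tested, and exons and introns were not analysed here.

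**Figure D4:**
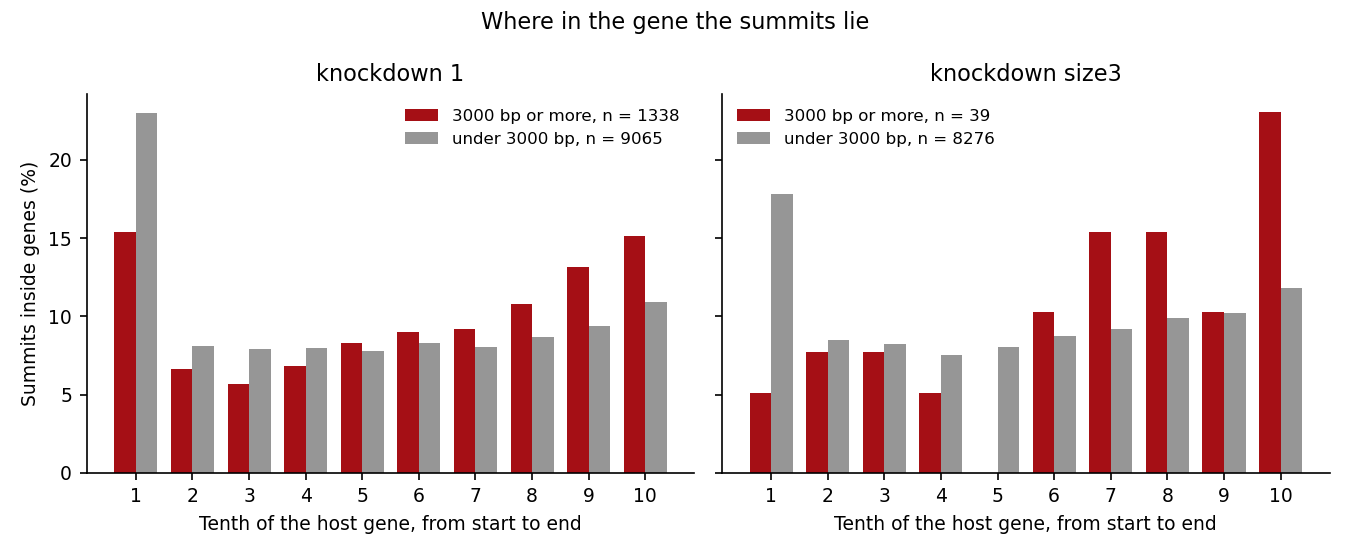
Share of summits inside genes (%) in steps of 10% of the host gene from its start to its end, for wide and narrower peaks of knockdown 1 and knockdown size3. A summit inside more than 1 gene counts once for each. In knockdown 1 the first step holds 15.4% of wide and 23.0% of narrower summits, and the last 15.1 and 10.9%.

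Wide peaks were unevenly spread over chromosomes. In knockdown 1, 835 of them, or 42.0%, lay on chromosomes 11 (247), 2 (220), 5 (189) and 17 (179), while chromosome 13 had 7. The same 4 chromosomes held 28.6% of the peaks of any width in that library. Per 10 Mb, chromosome 11 had 20.3 wide peaks, chromosome 17 had 18.9, chromosome 15 had 14.8, chromosome 19 had 14.7 and chromosome 13 had 0.599. As a share of its peaks, chromosome 15 was highest, at 16.2%, and chromosome 13 lowest, at 1.4%. In knockdown size3, 34 of 48, or 70.8%, lay on chromosomes 17 (17), 19 (10) and 10 (7). The gap between neighbouring wide peaks of knockdown 1 had a median of 93.8 kb, and 278 of 1971 gaps, or 14.1%, were under 10 kb.

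Some genes carried several wide peaks. Of the 1990 wide peaks of knockdown 1, 80.5% touched 1 protein-coding gene, 10.4% touched 2 or more and 9.20% touched none. In knockdown 1 wide peaks touched 1619 of 20665 protein-coding genes, or 7.83%, and 289 of them were touched by 2 or more and 29 by 4 or more. The genes touched had a median length of 23.7 kb, beside 17.5 kb for all, and a median of 17.1% of their length was covered. Gse1, a chromatin co-repressor gene of 352883 bp, had 12 wide peaks of 3066 to 10110 bp, spread along the gene, among 23 peaks of knockdown 1. Knockdown size3 had 12 peaks in Gse1 and 0 of them were wide, and the other 4 libraries had none. Rbfox3, a neuronal splicing factor gene, had 8 wide peaks, and Crocc, which encodes the ciliary rootlet protein rootletin, had 6 that covered 50.8% of it. Sh3pxd2a, Sorcs2 and Zfp469 had 6 each. Rxra, the retinoid X receptor gene, had 5 that covered 25.6% of it.

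Some genes lay whole inside wide peaks, and these had to be short, because a gene must fit within the peak. In knockdown 1 65 protein-coding genes were covered whole, with a median length of 2.75 kb, and 286 were covered over at least 50% of their length. A single peak of 9452 bp (chr2:25497158-25506609) held C8g and Fbxw5 whole, 1 of 7766 bp held Dohh and Gm48552, and 1 of 6081 bp held Alkbh7 and Pspn. The longest gene covered whole was Rnf112 (5772 bp). Others included Socs1, which limits cytokine signalling, Gadd45b, Cldn5, Rps15 and the homeobox genes Tlx3, Tlx2 and Nkx1-1. Shh, the hedgehog ligand of limb and neural tube, was covered over 91.9% of its 10262 bp by 1 peak of 9463 bp (chr5:28457670-28467132), where the authors' fold was 5.95. In knockdown size3 Rhbdl1 alone was covered whole.

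Wnt pathway genes were touched more often than the 7.83% of all genes. Wide peaks of knockdown 1 touched 26 of 96 members, or 27.1% (19.2 to 36.7%), with a median gene length of 33.3 kb for the list. A peak of any width touched 71 of the 96 in that library, beside 39% of all genes. Grouped by role after the values were seen, these were 8 of 19 ligands, 5 of 18 receptors and co-receptors, 2 of 11 secreted inhibitors, 3 of 15 cytoplasmic members, 3 of 8 polarity members and 4 of 13 nuclear members. The other 12 members of the list were given no role, and 1 of them, the cyclin gene Ccnd1, was touched. The ligands were Wnt1, Wnt2b, Wnt3, Wnt3a, Wnt5b, Wnt7a, Wnt7b and Wnt9a. Wnt7b had a peak of 7496 bp (54.96 reads per kb) and another of 4809 bp at a gene end. The receptors were Fzd1, Fzd5, Fzd10, Lgr6 and Lrp5, the co-receptor whose loss lowers bone mass, with a peak of 7506 bp and 64.9 reads per kb. Csnk1e, a kinase of the pathway, had 8221 bp, and Celsr2 had 8097 bp at its start, the peak over the sequence printed above. Apc2, a relative of the tumour suppressor Apc, was the member with wide peaks in 2 libraries: 5366 bp in knockdown 1 and 3325 bp in knockdown size3, which did not overlap. Genes of a list differ in length and in their neighbours, and no test was made of the list.

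Patterning transcription factors were touched in 31 of 125 cases, or 24.8% (18.1 to 33.0%), although the list's median gene length was 7.40 kb. They included 6 of 16 Fox genes, 3 of 8 Pax, 3 of 13 Sox and 2 of 5 Gata genes and, among others, Six2 and Six5. A peak of any width touched 77 of the 125, beside the same 39% of all genes. None of the 10 listed genes of the Otx, Neurog, Neurod, Twist and Emx families had a wide peak. Neurog3, which was not on the list, was covered whole by a wide peak of 3366 bp in knockdown 1. The widest were 6463 bp over Six5 and its neighbour Dmpk, 6265 bp in Sox8, 6020 bp over all of Tlx3, 5890 bp in Gata2 and 5736 bp in Irx5. The authors' false discovery rate was 12.4% at Sox8, 6.90% at Tlx3 and 29.0% at Gata2, and under 5% at Six5 and Irx5. The scores of the first 3 were higher too, at 211.29, 180.49 and 251.27, against 163.78 at Six5 and 163.89 at Irx5. Of the Hox cluster genes 21 of 39 had a peak of any width in knockdown 1, beside 39% of all genes. A wide peak touched 1, or 2.56% (0.454 to 13.2%, an interval that holds the 7.83%), and this was Hoxa10, by a peak of 3800 bp with 78.9 reads per kb.

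Osteoblast genes had 7 of 52 members touched, or 13.5% (6.68 to 25.3%): Col5a1, Ihh, Fgfr1, Runx2, Ptch1, Cdh2 and Pth1r. A peak of any width of knockdown 1 touched 18 of the 52, beside 39% of all genes. Col5a1, a fibrillar collagen gene, had 3 wide peaks of 3256 to 5817 bp. The widest lay close to its end and was listed at a false discovery rate of 100%, with a score of 340.14 and a fold of 5.21. Runx2, the master regulator of osteoblasts, had 1 of 3443 bp with 89.5 reads per kb. Ihh had 1 of 4781 bp at its start. Of BMP, TGF-beta and Notch genes 7 of 60 were touched, or 11.7% (5.77 to 22.2%), and the intervals of both lists held the 7.83% of all genes. A peak of any width touched 42 of the 60 BMP, TGF-beta and Notch genes. Those with a wide peak included Jag2 (5766 bp), Bmp7 (3909 bp), Chrd (3558 bp), Dll4 (3326 bp) and Notch1 (3323 bp).

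Genes of cytoskeletal linkers, a mixed list that includes Macf1, were touched in 11 of 49 cases, or 22.4% (13.0 to 35.9%), beside 7.83% of all genes. The median gene length of the list was 70.4 kb. A peak of any width of knockdown 1 touched 38 of the 49, beside 39% of all genes. Flnc, which encodes the actin crosslinker filamin C, had peaks of 5060 and 3506 bp in knockdown 1 and 4234 bp in knockdown size3, and the last of these overlapped the second. Plec, the plectin gene, had 3991 bp at 1 end in knockdown 1 and 4005 bp elsewhere in knockdown size3. Evpl had 8155 and 3821 bp, Map1s 6953 bp and Gas2l1 5280 bp. The wider Evpl peak had a false discovery rate of 71.4% with a score of 294.54. Macf1 itself had no wide peak: its widest was 2425 bp in knockdown 1 and 1217 bp in knockdown size3, and the other 4 libraries had no peak within 5 kb of it.

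E2F, helix-loop-helix and Polycomb genes were touched in 7 of 40 cases, or 17.5% (8.75 to 32.0%), beside 7.83% of all genes. A peak of any width of knockdown 1 touched 24 of the 40, beside 39% of all genes. Those with wide peaks included Tcf3 (7719 bp), L3mbtl2 (6275 bp) and the Polycomb genes Cbx7, with 3 wide peaks, and Cbx6. Neuronal genes were touched in 10 of 58 cases, or 17.2% (9.64 to 28.9%), but their median length was 550.7 kb. A peak of any width touched 52 of the 58. Nrxn2 and Shank3 had 3 wide peaks each, and Grin1 and Grin2a 1 each. Of the ribosomal protein genes 2 of 72, or 2.78% (0.765 to 9.57%), were touched, Rpl18 and Rps15, and the interval holds the 7.83%. A peak of any width touched 9 of the 72, beside 39% of all genes. Outside knockdown 1, the lists had wide peaks in knockdown size3 at Apc2, Flnc and Plec, and none in the other 4 libraries.

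Promoters inside wide peaks were GC-rich, but less CG-dense than those inside narrower peaks. In knockdown 1 559 of 20085 RefSeq windows of 250 bases, from 462 genes, lay whole in a wide peak and 2416 in a narrower one. The median GC share was 63.6% in the former, 64.8% in the latter and 56% over all. CG dinucleotides had a median of 15, 20 and 10 in the same order, and 69.8%, 84.8% and 51.3% of windows held at least 10. The GC box GGGCGG was in 65.3% of windows in wide peaks, 68.8% in narrower peaks and 43.4% of all. The E-box CACCTG was in 18.4%, 16.97% and 17.2%, CAGCTG in 12.3%, 13.4% and 12.2%, and CACGTG in 8.77%, 8.57% and 6.69%. GCGGGAA was in 7.87%, 7.66% and 5.02%, TATAAA in 5.72%, 3.52% and 11.7%, CCAAT in 30.9%, 30.9% and 35.3%, and CTTTGA in 6.98%, 7.41% and 12.6%. In percentage points the GC box stood furthest above all promoters in both kinds of peak, and both class 1 E-boxes differed less from all promoters. Windows of 1 gene can overlap, and a match is a description of letters.

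Few wide peaks recurred between libraries. Of the 1990 in knockdown 1, 483 touched a peak of knockdown size3, or 24.3%, and 12 touched a wide one. Counted by summit, which does not depend on width, 9.70% (8.47 to 11.1%) of wide and 5.86% (5.53 to 6.20%) of narrower summits of knockdown 1 lay in a knockdown size3 peak. In the 4 narrower classes of width the share was 2.51%, 4.31%, 7.83% and 9.01%. In the wide classes from 3000, 4000, 5000 and 7000 bp it was 10.1%, 6.83%, 10.0% and 18.3%. It thus did not step up at the 3000 bp limit. Per Mb of peak, however, wide peaks touched 60.1 and narrower ones 69.8 peaks of that library. Control size3 peaks touched 31 wide peaks of knockdown 1, knockdown 2 peaks touched 2, and control 1 and control 2 peaks touched 0.

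Of the 48 wide peaks of knockdown size3, 12 overlapped a wide peak of knockdown 1. The largest such pair was in Rai1, the gene of Smith-Magenis syndrome, with 8585 bp and 653 reads in knockdown 1 and 5373 bp and 133 reads in knockdown size3. Sh3pxd2a had 6679 and 4005 bp, Ncln 7276 and 3985 bp, Lrp1, an endocytic receptor gene, 5044 and 3847 bp, Ppp2r5b 5595 and 3803 bp, and Ttc7 5927 and 3507 bp. Flnc was the member of the shared set that was wider in knockdown size3, with 3506 and 4234 bp. Reads per kb were 76.1 and 24.8 at Rai1 and 94.0 and 33.5 at Lrp1, and scaled to library reads (RPKM) they were 4.12 and 3.03 at Rai1 and 5.09 and 4.10 at Lrp1. The authors' false discovery rate in knockdown 1 was 60% at Ncln and 40% at Lrp1.

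All 6 wide peaks of control size3 lay in 1 stretch of 74.7 kb on chromosome 1 (chr1:88229175-88303845), of which they covered 39.5%. Mroh2a and Hjurp, which encodes the chaperone of the centromeric histone, lie there. Their widths were 5367, 3269, 5335, 5862, 3680 and 5975 bp, their reads per kb 30.6 to 43.2 and the authors' fold 2.81 to 4.34. Knockdown size3 had 5 peaks in the same stretch, of which 2 were wide, 5540 bp in Mroh2a with 57.2 reads per kb and 3108 bp in Hjurp with 70.8. Knockdown 1 had 1 peak there, of 2489 bp with 214.1 reads per kb, and control 1, control 2 and knockdown 2 had none. Wide peaks in this stretch thus came from 1 control and 1 knockdown library, both labelled size3.

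**Figure D5:**
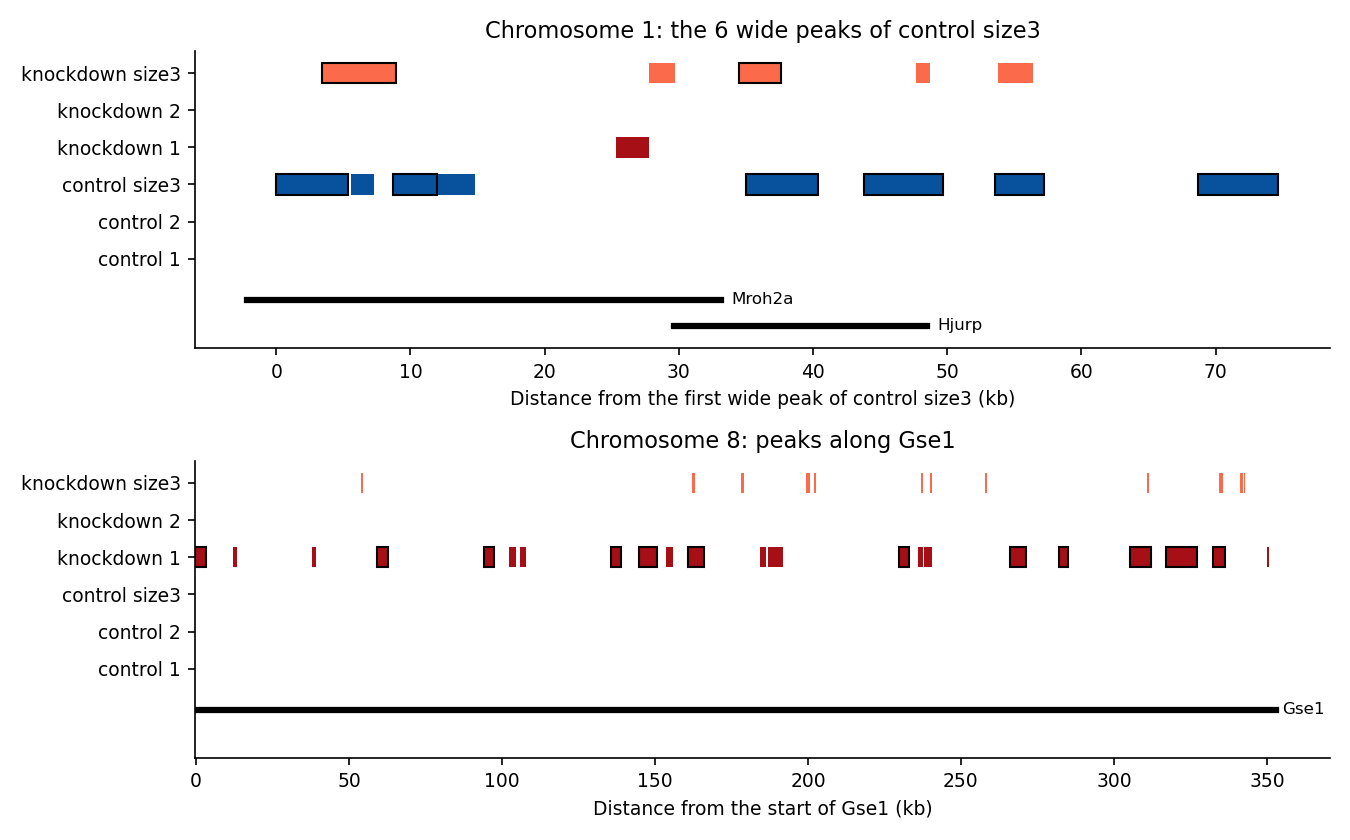
Peaks of each library along the stretch of chromosome 1 that holds all 6 wide peaks of control size3 (distance in kb from the first of them) and along Gse1 (distance in kb from the gene's start), with wide peaks outlined in black and genes as black lines. The upper map shows 8 peaks of control size3 and 5 of knockdown size3, and the lower one 23 peaks of knockdown 1, of which 12 are wide, and 12 of knockdown size3.

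The remaining wide peaks lay at a few places, several of them known for repeats. Control 1 and control 2 had 1 each, at the same place (4508 and 3128 bp, chr10:57440026-57444533 in control 1), about 39.2 kb from the nearest gene, Hsf2. Knockdown 2 had a peak of 333 bp there with 9 reads. The widest peak of chromosomes 1 to 19 in all 6 lists, 15914 bp with 2608 reads, was in knockdown 2. It lay in Sfi1 (chr11:3184182-3200095), a gene with many partial copies in the mouse genome. Knockdown 2 also had 4137 bp on chromosome 14 with 1297 reads per kb. The third was 3848 bp in the ribosomal repeat of chromosome 17, and the same place was wide in knockdown 1 (4404 bp, 1412 reads per kb) and knockdown size3 (3933 bp, 752 reads per kb). The fold there was 2.67, 1.52 and 2.12 in knockdown 2, 1 and size3, beside the most reads per kb of any wide peak in knockdown 1 and in knockdown size3. After this place, the most reads per kb in wide peaks of knockdown 1 were 117 over Brd2 and H2-DMa and 110 in Pde10a.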

How the data were processed

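Chromatin immunoprecipitation libraries with an anti-MACF1 antibody and their inputs were compared in MC3T3-E1 cells, 3 per group. Per the labels, chromatin was sonicated to 200 to 500 bp. The submitters' processing notes name cutadapt, Bowtie2 and GRCm38. Per the file headers, the authors ran MACS 1.4.2 on each immunoprecipitate with the matching input as control, at a p limit of 1e-05 and with 1 read kept per position, and pooled no libraries. The deposited lists give per peak the width, the summit, a read count, a score made from the caller's p-value, a fold enrichment and a false discovery rate in percent.

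From these were computed reads per kb (count over width), the distance of each summit to RefSeq protein-coding genes (GRCm38.p6, 20665 on chromosomes 1 to 19), genes within 500 kb and genes touched by 1 bp or more. Strand and starts came from the RefSeq promoter table, which held 16457 of these genes, on 18 of the 19 chromosomes. Position within a gene uses those genes alone. Exons and introns were not analysed here. Values compared between groups or widths are 1 per library, over the 3 libraries with at least 5 wide peaks, with exact permutation tests. Their p-values measure only the spread between these libraries. Shares have Wilson intervals. Members, gene lists and tests were chosen with earlier results of these data known. Peaks named by rule are the widest of each library, those shared between libraries, those nearest to the limit, those with the most whole genes or reads per kb, and up to 5 genes per list by libraries and width. Genes named for many wide peaks or high coverage, the other list members, the microRNAs, the role and family groups, the gene-density split and the positions within genes were chosen after their values were seen. Alternatives changed the width limit, gene definitions, distances, filters, comparison peaks and libraries. Python 3.11.15, pandas 2.3.3, numpy 2.4.6, scipy 1.17.1 and matplotlib 3.10.9 were used, and the scripts were tested on simulated data.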

Additional observations from a re-analysis of the deposited data

How the results depend on the processing

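Of 77 values under alternative settings, 71 kept the direction of the reported one. No test here could reach the 0.05 level, so the side of that threshold could not change. Some of the 71 could not differ at all. Leaving out a library with fewer than 5 wide peaks repeated the reported value, because such libraries did not enter the tests. The 71 are thus not a count of independent checks. The share inside genes, wide minus narrower, ran from 11.9 to 28.3 percentage points over all settings and that of gene density from 9.5 to 24.5 genes. Leaving out 1 library gave 19.7 to 28.3 points and 11 to 17.8 genes. The share at gene ends, wide minus narrower, changed sign: it was -1.12 points by peak midpoint, -6.11 with a score of at least 100, -5.78 against peaks of 1000 bp up to the limit, and 20.8 with 5 kb in place of 1 kb. Without 1 library it ran from -0.868 (without knockdown 1) to 4.88 (without control size3). The knockdown minus control difference in gene density was 0 at a width of at least 2000 bp and 0 within 250 kb, and 1 to 15.5 genes without 1 library. The difference at gene ends was 16.7 to 21.0 points without 1 library. A replicate block left the size3 pair alone, with 16.7 points and 15.5 genes and no p. Knockdown minus control could not be computed at a width of at least 5000 bp, with a score of at least 100, with at least 20 wide peaks per library or without control size3. The control value in these differences comes from control size3, with 6 wide peaks in 1 stretch of chromosome 1, except at 2000 bp, where control 1 enters too.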
